A study of Mus musculus with 20 samples.

Results

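The 34 genes described here are endothelial genes, those that mark or serve the cells that line blood and lymph vessels. They were chosen by name, with earlier results of these data known. All 34 were found by symbol among the 49585 gene IDs counted in 18 mouse osteosarcomas and in 2 libraries of an osteosarcoma cell line. The tumours came from mice of a C57BL/6J and 129S/SvJae mix: 4 from p53+/- mice, which carry a lost Trp53 allele (here p53 het), and the rest from mice with a missense allele, 6 p53R172H/+, 3 p53R245W/+ and 5 p53R270H/+ (here R172H, R245W and R270H). R172H is known as a structural mutant of p53, and R245W and R270H as mutants of the surface that contacts DNA. All 4 tumour groups carry 1 altered Trp53 allele, and the fate of the wild-type allele, the site of a tumour, and the age and sex of a mouse are not given in the sources used here. Cell line 14, labelled p53R245/O, given in its control's label as heterozygous mutant with LOH (loss of heterozygosity), and grown from a primary tumour, was treated with a control or with p53 siRNA and gave 1 library each. Grown in culture, it is a reference without the vessels of a tumour. Trp53, the target of the siRNA, measured 94.9 CPM in the control and 30.6 CPM in the p53 siRNA library, and 13.5 to 26.98 CPM in p53 het against 26.5 to 74.0 CPM in the tumours with a missense allele.

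The tumour libraries held 20.1 to 29.2 M (megacounts) each, and those of the line 64.1 and 73.4 M. A level of 3 counts, taken here as the detection floor, equals 0.103 to 0.149 CPM (counts per megacount of the library) in the tumours, and every one of the 34 genes exceeded it in all 18 tumours. A serial number stands in the title of every R172H and R245W library and of p53 het 1 and 2, but in no R270H title and not in p53 het 3 or 4. What this difference stands for is not given in the sources used here, and R270H shares no title kind with R172H or R245W. The 10 genes that mark osteoblasts, the cell type an osteosarcoma resembles, summed to 14002 to 79789 CPM in the tumours and to 2969 and 3311 CPM in the line. Of the other cell types in these pieces of tumour, p53 het 4 held the highest summed level of skeletal muscle genes (2367 CPM, against 24.2 to 1036 CPM in the other tumours).

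Vascular endothelial growth factor (VEGF) binds the receptors encoded by Kdr, Flt1 and Flt4, angiopoietins act through Tek, and endothelial cells are held together by VE-cadherin (Cdh5) and PECAM-1 (Pecam1). ETS factors (Erg, Fli1, Ets1) and the SOXF factors (Sox7, Sox17, Sox18) are known regulators of endothelial gene programmes. Bone and the tumours that arise in it are richly vascular, and the sinusoidal vessels of bone marrow carry scavenger receptors such as Stab2.

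ETS factors bind short GGAA-centred sequences, so the promoters of the endothelial genes were read for the letters AGGAAG and CGGAAG on both strands. The RefSeq promoter table (GRCm38.p6) held 17 of the 34 genes, and a window of 150 bases that ends 12 bases before the RefSeq start was searched in each. Of the 17 windows, 8 (47.1%) held a match, those of Apln, Cd34, Egfl7, Emcn, Eng, Flt1, Robo4 and Stab2, against 27.1% of 32851 windows of the same length across the table. In 6 of the 17 genes the window overlaps an exon of the gene itself, among them Egfl7, Robo4 and Stab2. The SOX letters AACAAT were found in 2 windows (11.8%, against 5.47%), Emcn and Tek, and the GATA letters AGATAA in none (0 of 17, against 5.74%). These matches describe letters and not binding. The windows of 5 pan-endothelial markers and of Cd34, genes given per library below whose windows hold no exon of their own, follow 5′ to 3′ on the gene's strand, with the ETS letters in capitals.
Emcn promoter window, chr3:137340917-137341066, plus strand: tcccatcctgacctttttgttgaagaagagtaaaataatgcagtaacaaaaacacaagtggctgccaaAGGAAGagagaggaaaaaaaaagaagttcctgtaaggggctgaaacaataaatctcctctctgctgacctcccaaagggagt
Cd34 promoter window, chr1:194938660-194938809, plus strand: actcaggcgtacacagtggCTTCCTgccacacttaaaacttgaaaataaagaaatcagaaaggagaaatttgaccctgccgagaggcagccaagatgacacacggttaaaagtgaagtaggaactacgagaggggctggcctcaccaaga
Flt1 promoter window, chr5:147726023-147726172, minus strand: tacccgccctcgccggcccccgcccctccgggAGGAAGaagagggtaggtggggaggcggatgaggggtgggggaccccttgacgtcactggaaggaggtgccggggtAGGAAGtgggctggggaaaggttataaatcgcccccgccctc
Kdr promoter window, chr5:75978467-75978616, minus strand: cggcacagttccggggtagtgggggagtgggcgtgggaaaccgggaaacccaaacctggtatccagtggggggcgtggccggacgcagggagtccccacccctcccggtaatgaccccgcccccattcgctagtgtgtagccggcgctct
Tek promoter window, chr4:94739128-94739277, plus strand: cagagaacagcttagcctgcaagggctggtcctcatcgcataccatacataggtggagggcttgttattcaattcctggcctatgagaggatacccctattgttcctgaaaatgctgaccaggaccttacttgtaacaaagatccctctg
Erg promoter window, chr16:95586605-95586754, minus strand: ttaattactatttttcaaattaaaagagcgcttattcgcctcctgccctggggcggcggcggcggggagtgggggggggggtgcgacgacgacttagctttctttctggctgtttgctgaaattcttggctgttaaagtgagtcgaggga
The Flt1 window holds 2 ETS matches, the Emcn and Cd34 windows hold 1 each, and the Kdr, Tek and Erg windows hold none of these letters.

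Endothelial RNA was detected in every tumour. Per kilobase of exon and scaled to the library (the TPM form), Cdh5 was the highest of the 34 genes with a median of 94.2 over 18 tumours (28.2 to 192.5). Plvap, which forms the diaphragms of fenestrated vessels, followed with 74.1 (37.3 to 159), then Pecam1 with 48.1 (21.7 to 77.6) and Eng, a co-receptor of TGF-beta and BMP ligands, with 47.7 (19.9 to 129). Ets1 was the fifth with 32.8 (18.5 to 47.8). At the other end stood Sox17 with 2.66, the hyaluronan receptor Lyve1 with 1.86 and Stab2 with 1.39. The ranges of neighbours in this order overlapped throughout. Compared within each tumour, 1 of the 33 adjacent pairs kept its order in all 18 tumours, Plvap above Pecam1, while Cdh5 was above Plvap in 11 of 18. The spread over the 18 tumours also differed between genes on the CPM scale: the highest tumour exceeded the lowest 65.3-fold for Lyve1, 45.1-fold for Stab2 and 24.02-fold for Apln, and only 2.08-fold for Ets1, 2.13-fold for Fli1 and 2.14-fold for Erg.

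**Figure D1:**
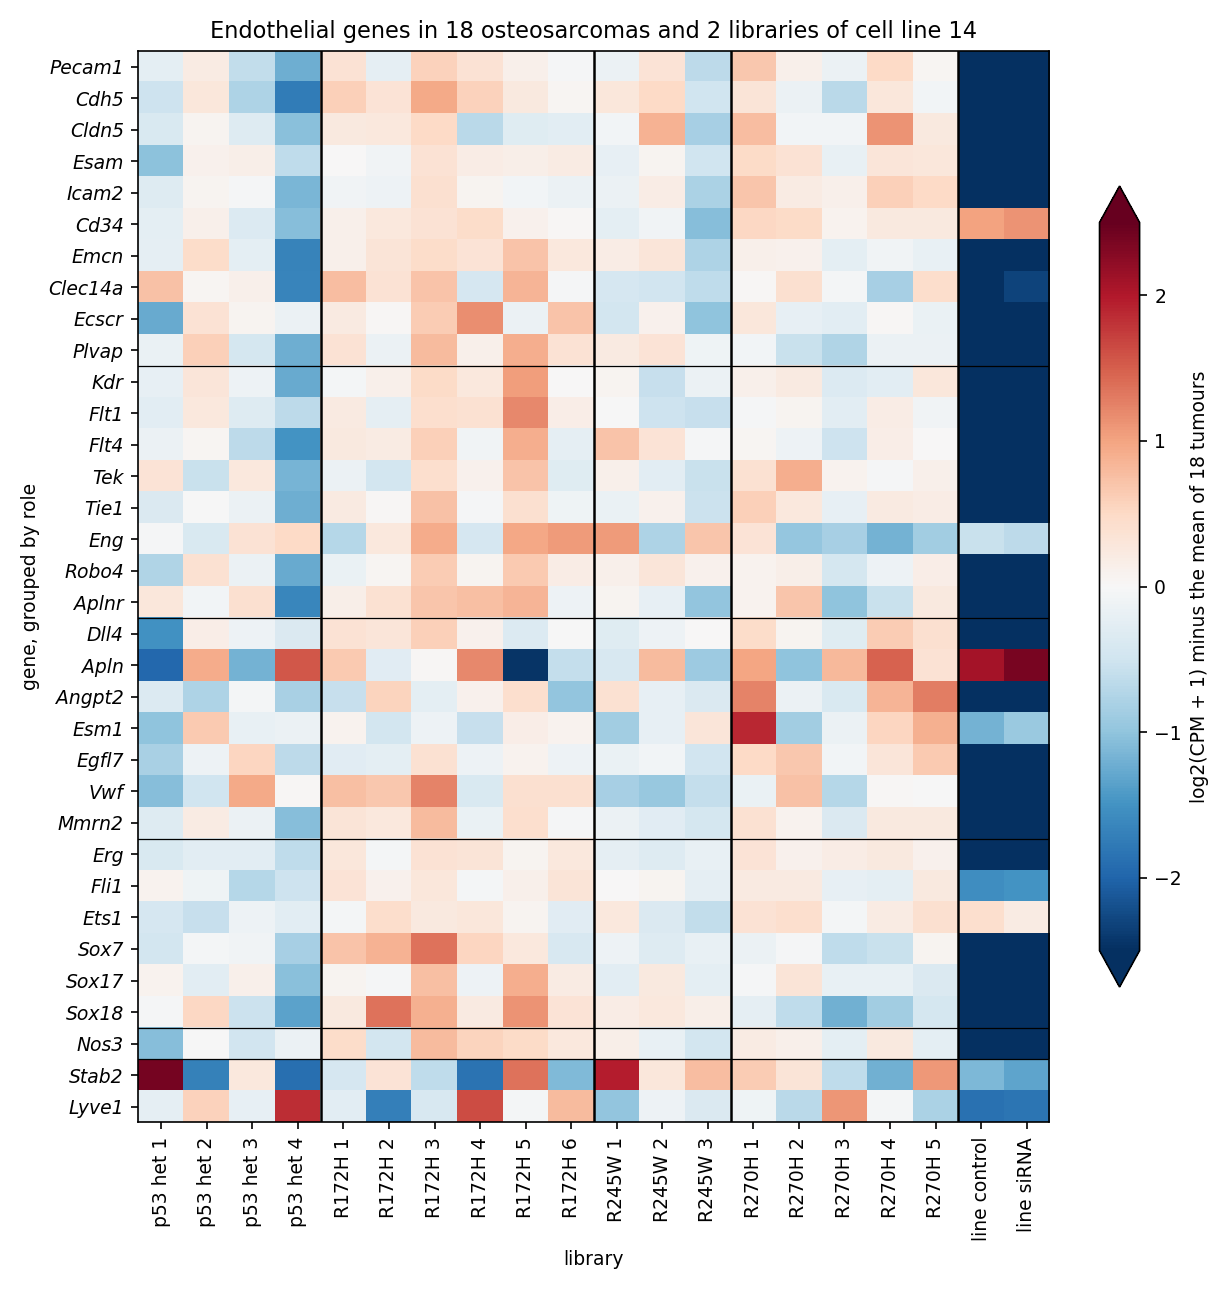
Level of each of the 34 endothelial genes (rows, grouped by role) in each library (columns), as log2(CPM + 1) minus the mean of the 18 tumours. The column of p53 het 4 is the lowest tumour for 20 of the 34 genes, and both columns of the cell line are below the tumours except at Cd34, Ets1, Apln and a few others.

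The summed level of the 34 genes was 1135, 1465, 1208 and 804 CPM in p53 het 1 to 4. It ran from 1480 to 2086 CPM in R172H with a median of 1598 CPM, 1519, 1390 and 1063 CPM in R245W, and 1777, 1491, 1103, 1513 and 1523 CPM in R270H. In CPM, all 6 R172H tumours were thus above all 4 p53 het tumours in this sum, the nearest by 1480 against 1465 CPM. R245W and R270H overlapped both. This separation does not hold after the TMM scaling used in the tests. The TMM factor was 0.854 for p53 het 2 and 0.901 to 1.114 in R172H. Division by it places p53 het 2 above R172H 1, R172H 2, R172H 4 and R172H 6. The summed level of 14 pericyte and smooth muscle genes separated the same groups, with 847 to 1365 CPM in p53 het and 1453 to 1851 CPM in R172H, and 12 of these 14 genes had a log2 fold above 0, none of which passed; its part in the endothelial values was not tested. These genes are not limited to vessels, as they summed to 1352 and 1115 CPM in the cell line. In bulk RNA, fewer endothelial cells and less endothelial RNA per cell cannot be told apart. The tumour p53 het 4 had the lowest level of 20 of the 34 genes and p53 het 1 that of 7, whereas R172H 5 had the highest level of 9, R172H 3 of 7 and R270H 1 of 5. A second list of 34 endothelial genes with no gene in common was also lowest in p53 het 4 (810.5 CPM, against 1100 to 1919 CPM in the other tumours).

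Across the 4 genotypes, 0 of the 34 genes passed a test for any difference (edgeR quasi-likelihood F test, Benjamini-Hochberg adjusted p under 0.05 over 20616 genes; smallest adjusted p = 0.0632, for Sox18), where 2.86% of all genes tested passed. At an unadjusted p under 0.05, 7 were found (Erg, Vwf, Sox7, Sox18, Ets1, Cd34 and Angpt2), beside 22.1% of all genes tested. In 5 of the 6 contrasts of 2 genotypes 0 of the 34 genes passed. Of all genes tested, 0.0776% passed in R172H against p53 het, 0.0728% in R245W against p53 het, 0.00% in R270H against p53 het, 0.155% in R245W against R172H and 1.24% in R245W against R270H. In the contrast that remains, R270H against R172H, 5.28% of all genes and 1 of the 34, Sox18, passed. The 3 contrasts with p53 het share its 4 tumours.

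Among the junction and surface genes, Pecam1 measured 102, 139.7, 78.9 and 51.8 CPM in p53 het 1 to 4. It ran from 104 to 180.5 CPM with a median of 144 CPM in R172H, and was 109.7, 153 and 77.2 CPM in R245W and 193, 132, 109, 171 and 126 CPM in R270H. These groups overlapped. Cdh5, whose product is the adhesive core of the endothelial junction, measured 108, 191, 90.8 and 45.5 CPM in p53 het, 162 to 302 CPM (median 216) in R172H, 189, 222 and 111 CPM in R245W, and 194, 140.4, 96.8, 190.1 and 148 CPM in R270H. Its log2 fold in R172H against p53 het was 0.82 ± 0.34 (SE), with an unadjusted p of 0.0263 and an adjusted p of 0.347. Emcn, a mucin-like surface protein of veins and capillaries that marks a vessel type coupled to bone formation, measured 38.7, 63.5, 38.6 and 13.7 CPM in p53 het and 49.8 to 76.0 CPM (median 57.7) in R172H. It was 52.4, 57.0 and 26.3 CPM in R245W and 49.9, 49.4, 38.2, 43.0 and 39.8 CPM in R270H. For all 3 genes the lowest tumour was p53 het 4, and R245W 3 was the lowest of its group.

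Cd34, a sialomucin of endothelial and progenitor cells, measured 62.0, 80.6, 58.1 and 34.6 CPM in p53 het and 75.4 to 101 CPM (median 84.1) in R172H. In R245W it was 62.3, 69.1 and 34.4 CPM, below every R172H and every R270H tumour (105, 104, 78.7, 87.9 and 87.2 CPM). Its log2 fold in R245W against R270H, -0.72 ± 0.27 with an adjusted p of 0.163, did not pass. Cd34 and Erg were the 2 genes without overlap and lower in R245W than in R270H, beside 7.50% of all genes, and Sox18 the only one higher, beside 5.44%. Clec14a, an endothelial lectin, also stood lower in R245W (12.2 to 14.3 CPM) than in every R172H tumour (14.4 to 35.9 CPM), by a narrow gap. That gap does not hold after TMM scaling, with factors of 1.010 for R245W 1 and 1.079 for R172H 4. With Erg and Vwf, Cd34 and Clec14a made 4 of the 34 genes without overlap in CPM and lower in R245W than in R172H, beside 3.22% of all genes.

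**Figure D2:**
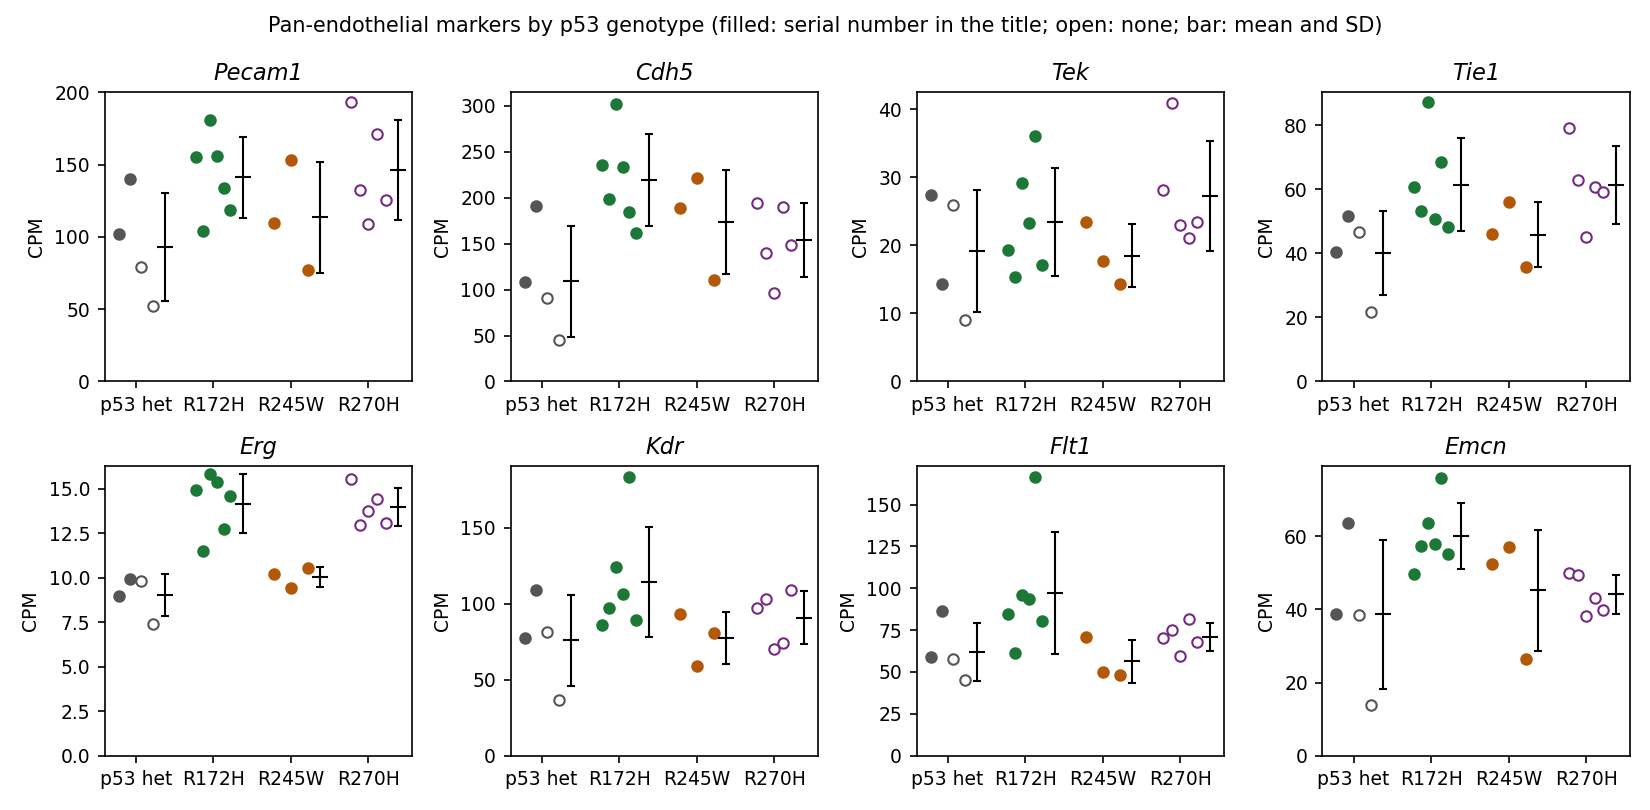
CPM (linear axes from 0) of 8 pan-endothelial markers in each of 18 tumours by p53 genotype; filled points have a serial number in the title, open points have none, and the bars beside them give the mean and SD. In CPM, which is not TMM scaled, Erg separates p53 het and R245W (7.39 to 10.5 CPM) from R172H and R270H (11.5 to 15.8 CPM). The other 7 markers overlap between genotypes.

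Of the receptors, Kdr, the main signalling receptor for VEGF-A, measured 77.1, 109, 81.4 and 36.3 CPM in p53 het, 86.3 to 183 CPM (median 102) in R172H, 93.2, 59.2 and 80.4 CPM in R245W, and 97.4, 103, 70.2, 74.0 and 109 CPM in R270H. Flt1, a high-affinity VEGF receptor with a decoy form, measured 59.2, 86.2, 57.5 and 45.0 CPM in p53 het, 61.5 to 167 CPM (median 89.1) in R172H, 71.1, 50.1 and 48.0 CPM in R245W, and 70.6, 75.0, 59.5, 81.9 and 67.8 CPM in R270H. The highest value of both genes was that of R172H 5, and the groups overlapped. Tek, the angiopoietin receptor, measured 27.4, 14.3, 25.9 and 9.003 CPM in p53 het, 15.3 to 35.98 CPM (median 21.3) in R172H, 23.4, 17.7 and 14.3 CPM in R245W, and 28.2, 40.9, 22.9, 21.02 and 23.4 CPM in R270H. Tie1, its orphan partner, measured 40.3, 51.5, 46.6 and 21.8 CPM in p53 het, 48.2 to 87.1 CPM (median 57.0) in R172H, 45.9, 56.0 and 35.6 CPM in R245W, and 79.2, 62.8, 45.0, 60.8 and 59.1 CPM in R270H. No contrast of these 4 receptors passed the test, and their folds had standard errors between 0.23 and 0.36 on the log2 scale.

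Flt4, the receptor for VEGF-C, is best known from lymphatic vessels and is also found on bone marrow sinusoids. It measured 29.8, 34.01, 20.4 and 11.1 CPM in p53 het, 28.1 to 62.5 CPM (median 38.5) in R172H, 54.2, 42.0 and 32.4 CPM in R245W, and 33.8, 29.9, 22.6, 36.9 and 33.1 CPM in R270H. Its log2 fold in R245W against p53 het was 0.72 ± 0.34 (adjusted p = 0.396). Eng measured 36.6 to 47.4 CPM in 4 R270H tumours, 108 CPM in R270H 1, and 51.1 to 179 CPM in R172H. Its log2 fold in R270H against R172H was -1.08 ± 0.39 with an unadjusted p of 0.0132 and an adjusted p of 0.109. Part of the exons of Eng overlap Fpgs on the other strand (median 24.7 CPM), and whether strand was used in counting is not given in the sources used here. Exons of Egfl7, Cd34, Dll4, Nos3, Ecscr, Stab2 and Sox17 also overlap a gene on the other strand, with medians of at most 12.5 CPM (Agpat2, at Egfl7).

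Among ligands and secreted proteins, Angpt2, the angiopoietin that loosens vessels, measured 27.9, 20.4, 34.5 and 19.8 CPM in p53 het, 17.4 to 52.9 CPM (median 33.97) in R172H, 46.7, 30.6 and 27.4 CPM in R245W, and 84.9, 32.0, 27.1, 64.3 and 87.2 CPM in R270H. R270H thus held the 3 highest tumours and 2 below the median of R172H, and the log2 fold against p53 het, 1.09 ± 0.36 with an adjusted p of 0.251, did not pass. Vwf, the von Willebrand factor of endothelial storage granules and of platelets, measured 10.5, 16.1, 45.0 and 23.4 CPM in p53 het, 17.5 to 55.4 CPM (median 34.1) in R172H, 12.4, 11.5 and 14.9 CPM in R245W, and 20.5, 38.9, 13.6, 23.4 and 22.8 CPM in R270H. All 3 R245W tumours were below all 6 R172H tumours, with a log2 fold of -1.40 ± 0.41 and an adjusted p of 0.215. Megakaryocytes also make Vwf, and the summed level of 10 megakaryocyte and platelet genes ran from 69.0 to 324 CPM in R245W and from 184 to 435 CPM in R172H; its part in the Vwf difference was not tested.

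Apln, the ligand of the apelin receptor and a gene of vessel tips, ran from 1.91 CPM in R172H 5 to 45.8 CPM in p53 het 4, the tumour that was lowest for most other genes. Stab2 ran from 0.719 CPM in p53 het 4 to 32.5 CPM in p53 het 1, and Lyve1 from 0.199 CPM in R172H 2 to 12.97 CPM in p53 het 4. Within p53 het alone, Stab2 spanned its whole range.

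Among the transcription factors, the ETS factors had the smallest spread over the tumours. Erg, an ETS factor that maintains endothelial identity, measured 8.99, 9.90, 9.83 and 7.39 CPM in p53 het and 10.2, 9.42 and 10.5 CPM in R245W. It measured 11.5 to 15.8 CPM (median 14.8) in R172H and 15.6, 12.98, 13.8, 14.4 and 13.1 CPM in R270H. In CPM, no tumour of the first pair of genotypes reached the lowest of the second pair, a pairing read from these values. After TMM scaling, with factors of 0.854 for p53 het 2 and 1.114 for R172H 2, p53 het 2 stood above R172H 2. The share of all genes split in this way was not counted. By title kind, p53 het 1 and 2 go with R172H and R245W, and p53 het 3 and 4 with R270H. The log2 folds were 0.51 ± 0.18 for R172H and 0.52 ± 0.18 for R270H against p53 het, and the adjusted p-values of 0.287 and 0.289 did not pass. For R245W the log2 fold was -0.45 ± 0.20 against R172H (adjusted p = 0.421) and -0.46 ± 0.20 against R270H (adjusted p = 0.228). Among all genes tested, 1.79% were without overlap and higher in R172H than in p53 het, and 2.55% in R270H than in p53 het.

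Ets1 measured 81.6, 73.2, 100.4 and 90.8 CPM in p53 het, 90.2 to 149 CPM (median 123) in R172H, 132, 85.7 and 71.7 CPM in R245W, and 141, 148, 106, 127 and 146 CPM in R270H. All 5 R270H tumours were above all 4 p53 het tumours, with a log2 fold of 0.52 ± 0.17 that did not pass (adjusted p = 0.241). Ets1 is also a gene of lymphocytes, and in cell line 14 it was at 148 and 127 CPM. In CPM, Icam2, an adhesion receptor that leukocytes bind, was higher in every R270H tumour (13.04 to 19.9 CPM) than in every p53 het tumour (4.79 to 12.5 CPM). It did not pass. After TMM scaling, with factors of 0.854 for p53 het 2 and 1.102 for R270H 2, p53 het 2 stood above R270H 2 for Icam2. Among all genes tested, 2.55% were without overlap in CPM and higher in R270H than in p53 het.

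Sox18 was lower in R270H than in R172H. It measured 22.2 to 50.2 CPM (median 30.02) in R172H and 15.98, 11.9, 7.74, 9.91 and 13.8 CPM in R270H, so that all 5 R270H tumours were below all 6 R172H tumours. The log2 fold was -1.43 ± 0.32 with an adjusted p of 0.0197 (edgeR). Of all genes tested, 2.87% were without overlap and lower in this contrast. It measured 18.6, 27.6, 12.7 and 6.88 CPM in p53 het 1 to 4 and 21.8, 22.9 and 21.1 CPM in R245W. In the same values, all 11 libraries with a serial number in the title (18.6 to 50.2 CPM) stood above all 7 without one (6.88 to 15.98 CPM), p53 het 1 and 2 above p53 het 3 and 4 included. Sox18 was the only one of the 34 genes split in this way, and 0.257% of all genes were split in this direction. With the title kind as a covariate the log2 fold of Sox18 was -0.05 with an adjusted p of 0.987, and 1 gene of all genes tested passed in this contrast. That covariate rests on p53 het 1 and 2 against p53 het 3 and 4, as no other genotype holds both title kinds. As R270H and R172H share no title kind, genotype and title kind cannot be told apart here. The transcript of Sox18 has a GC content of 60.9%, above 97.5% of the genes tested; with each library's trend with GC content removed, its log2 fold was -1.21 with an adjusted p of 0.0404. Without R270H 3 the adjusted p was 0.0503.

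Sox7, a SOXF partner of Sox18, measured 3.71, 5.30, 5.13 and 2.67 CPM in p53 het, 3.96 to 15.7 CPM (median 9.06) in R172H, 4.95, 4.19 and 4.72 CPM in R245W, and 4.87, 5.38, 3.18, 3.45 and 5.82 CPM in R270H. Of the R172H tumours 5 were above all tumours of the other genotypes and R172H 6 was among them. The log2 fold of R270H against R172H was -0.99 ± 0.30 (adjusted p = 0.0597), that of R172H against p53 het 0.96 ± 0.32 (adjusted p = 0.259) and that of R245W against R172H -0.94 ± 0.35 (adjusted p = 0.347). Without p53 het 4 or without R172H 6, Sox7 passed in R270H against R172H. Sox17, the arterial SOXF factor, measured 6.19, 4.64, 6.36 and 2.26 CPM in p53 het, 5.15 to 11.6 CPM (median 6.40) in R172H, 4.59, 7.01 and 4.67 CPM in R245W, and 5.58, 7.41, 4.93, 4.95 and 4.25 CPM in R270H, and its groups overlapped.

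**Figure D3:**
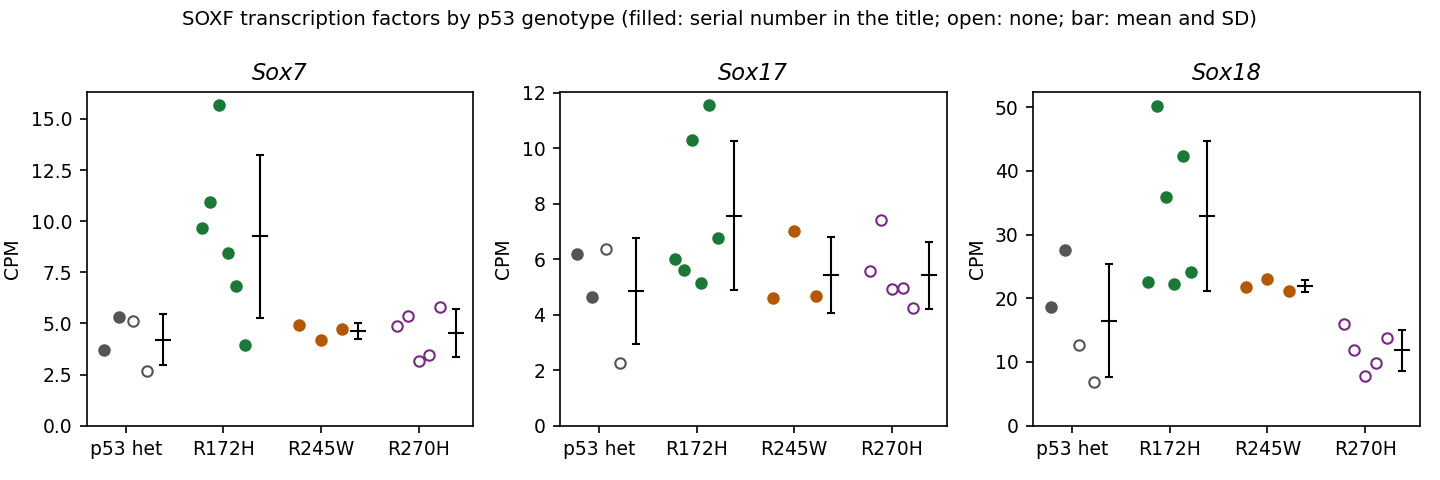
CPM (linear axes from 0) of the 3 SOXF factors in each of 18 tumours by p53 genotype; filled points have a serial number in the title, open points have none, and the bars beside them give the mean and SD. For Sox18 all filled points (18.6 to 50.2 CPM) lie above all open points (6.88 to 15.98 CPM), in p53 het too.

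Per contrast, the 34 genes leaned as follows, beside a median log2 fold of all genes between -0.04 and 0.00. Of the 34, 29 had a log2 fold above 0 in R172H against p53 het, with a median of 0.41, where 48.3% of all genes did. In R270H against p53 het 24 were above 0 with a median of 0.24 (48.7% of all genes), and in R245W against p53 het 19 with a median of 0.06 (47.3%). Below 0 were 29 in R245W against R172H with a median of -0.30 (50.3% of all genes), 24 in R245W against R270H with a median of -0.33 (51.5%) and 19 in R270H against R172H with a median of -0.20 (51.1%). At an unadjusted p under 0.05, R172H against p53 het had 6 genes with a fold above 0 (Cdh5, Erg, Sox7, Sox18, Ets1 and Nos3, the endothelial nitric oxide synthase) and none below, beside 5.36% of all genes above. R270H against p53 het had 5 above 0 and none below, beside 5.21% of all genes above. R245W against R172H had 7 below 0 and none above, beside 5.43% of all genes below. R245W against R270H had 2 above and 4 below, beside 18.4% of all genes in either direction, and R245W against p53 het 1 above and 1 below, beside 12.5%. R270H against R172H had 3 above and 4 below, beside 23.2% of all genes in either direction.

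These medians moved with single libraries. Without p53 het 4 the median was 0.18 in R172H against p53 het, 0.05 in R270H against p53 het and -0.16 in R245W against p53 het, and without R245W 3 it was -0.17 in R245W against R172H. With the title kind as a covariate the median was 0.15 in R172H against p53 het, 0.54 in R270H against p53 het and 0.45, the other sign, in R270H against R172H. Only p53 het holds both title kinds, so this covariate rests on p53 het 1 and 2 against p53 het 3 and 4. Of these, p53 het 4 was the lowest tumour for 20 of the 34 genes. The second list of 34 endothelial genes had 31 above 0 in R172H against p53 het with a median of 0.40, and 29 below 0 in R245W against R172H with a median of -0.32.

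**Figure D4:**
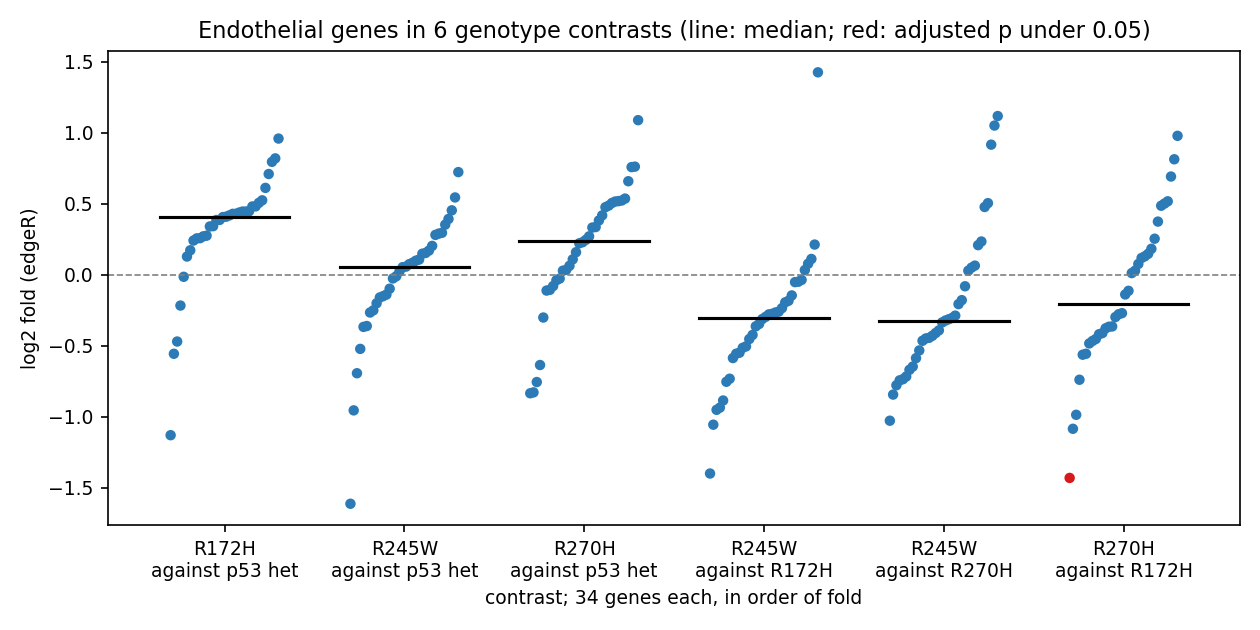
Log2 fold (edgeR) of the 34 endothelial genes in each of 6 genotype contrasts, each point a gene in order of its fold and each horizontal line the median. The only point with an adjusted p under 0.05 is Sox18 in R270H against R172H (-1.43), and the medians run from -0.33 to 0.41.

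Genes of the vessels' signals and neighbours were read from lists beside the 34. In the second endothelial list, Efnb2, the ligand that marks arteries, was lower in R270H than in R172H (log2 fold -1.32 ± 0.26, adjusted p = 0.0132). It was the only one of those 34 genes that passed in any contrast. Of 20 tested angiogenic ligands and modulators, Vegfb, a ligand of Flt1, was lower in R270H than in R172H (-1.12 ± 0.22, adjusted p = 0.0132) and higher in R245W than in R270H (1.19 ± 0.26, adjusted p = 0.0332). Vegfa, the main ligand of Kdr, did not pass in any contrast; its log2 fold was -0.54 ± 0.27 in R270H against R172H (adjusted p = 0.240). Of 14 pericyte and smooth muscle genes none passed, and the 3 of lowest p across genotypes were Pdgfrb, the receptor that holds pericytes to vessels (adjusted p = 0.105), Rgs5 (0.148) and Myh11 (0.198). Of 7 lymphatic genes, of which Flt4 and Lyve1 are among the 34, none passed. Of blood cell genes in R270H against R172H, 4 passed as higher and 2 as lower. The platelet chemokine Ppbp (log2 fold 3.47 ± 0.61, adjusted p = 0.00982), the leukocyte gene Cd53 (1.10 ± 0.24, adjusted p = 0.0187) and the erythroid genes Slc4a1 (4.62, adjusted p = 0.0488) and Klf1 (3.60, adjusted p = 0.0437) were higher. R270H 5 measured 188.3 CPM of Slc4a1 and 16.8 CPM of Klf1, against at most 20.2 and 1.21 CPM in the other R270H tumours. R270H 3 and 4 lay within the R172H range for both erythroid genes. The macrophage genes Timd4 (-2.88, adjusted p = 0.0206) and Cd68 (-1.45, adjusted p = 0.0445) were lower. As lists, the macrophage genes split into 5 above and 6 below 0 of 11 tested, and the leukocyte genes into 7 above and 5 below of 12, with 3 higher and 3 lower at an unadjusted p under 0.05. All 10 erythroid genes and 6 of 8 megakaryocyte and platelet genes were above 0. These too are contrasts in which genotype and title kind cannot be told apart, and the part of blood cells in the endothelial values was not tested.

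The 34 genes varied together to different degrees over the 18 tumours. Across the 561 pairs of them the median Pearson r of log2 CPM was 0.39, and 470 pairs were above 0, as a description of tumours that share depth and composition. Tie1 (0.96) and Mmrn2, a matrix protein of endothelial cells (0.93), were most like the mean of the other 33, and Lyve1 (-0.26), Apln (-0.09), Eng (-0.09) and Stab2 (0.02) least.

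Against a score of the second endothelial list, which holds none of the 34, Pearson r passed for 22 of the 34 genes, all positive. The median r over the 34 was 0.64. The permutation test was two-sided with 100000 resamples, Benjamini-Hochberg adjusted over 102 pairs of gene and list. By Spearman rho, tested and adjusted in the same way, only Kdr, Flt1, Tie1, Erg, Fli1 and Mmrn2 passed. For Cdh5 the permutation adjusted p was 0.0134 for r and 0.246 for rho. Kdr was the highest with r = 0.93 and rho = 0.88 over 18 tumours (permutation p = 1e-05 for both, the smallest the resamples can give; adjusted p = 0.00051), and r was 0.84 among libraries with and 0.99 among those without a serial number. Without p53 het 4 and R172H 3, the 2 farthest from the median score, r stayed above 0 for 31 of the 34 genes but 2 passed, Kdr (r = 0.86) and Flt1 (0.83), and r of Cdh5 went from 0.72 to 0.22. Within the 11 libraries with a serial number 5 passed, and within the 7 without one 0, although r there was 0.98 for Robo4, 0.95 for Emcn and 0.93 for Tie1. Against a score of 14 pericyte and smooth muscle genes 10 passed, led by Erg (r = 0.88, rho = 0.89, permutation p = 1e-05, adjusted p = 0.00051), whose r was 0.90 without p53 het 1 and R245W 3, 0.90 and 0.92 within the title kinds, and 0.78 with the genotype means removed. Of the 10 that passed by r, Tie1 and Dll4 did not pass by rho (permutation adjusted p = 0.0777 for both). Against 12 leukocyte genes 1 passed, Clec14a (r = 0.59, rho = 0.53, permutation adjusted p = 0.0304 for r and 0.103 for rho). The share of all genes tested that pass against these scores was not counted.

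Outside the 34, the 10 genes with the highest r to the mean of the 34, among genes with a mean of at least 1 CPM, were Rasip1 (0.91), Pcdh12 (0.89), Fam167b (0.87), Cd93 (0.87), F11r (0.86), Myct1 (0.86), Adcy4 (0.86), Ppp1r16b (0.85), Exoc3l (0.85) and Pcdh1 (0.83), each over 18 tumours. Of these, Rasip1, Cd93 and Myct1 are in the second endothelial list. The lowest r within a title kind was 0.69, for Ppp1r16b.

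In cell line 14, most of the 34 genes were at or near 0. Tie1, Robo4 and Sox17 had 0 counts in both libraries, which allows up to 0.0468 CPM in the control and 0.0409 CPM in the p53 siRNA library, and their tumour medians were at least 1119-fold, 583-fold and 119.5-fold higher than the floor of the control library. Cdh5 had 7 and 5 counts (0.109 and 0.0682 CPM, against a tumour median of 187 CPM), Pecam1 22 and 37 counts (0.343 and 0.504 CPM, against 129 CPM) and Emcn 1 count in each. In all, 20 genes were at or below 1 CPM in both libraries, and 28 were lower in both than in every tumour. The share of all genes that meet either mark was not counted, so these counts cannot be called particular to endothelial genes. The leukocyte genes summed to 19.5 and 17.6 CPM in the line and to 529.5 to 1632 CPM in the tumours.

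The exceptions were 5 genes above 10 CPM in both libraries, which made up 95.3% of the summed level of the 34 genes in the control library. Cd34 measured 148 and 160.7 CPM in the control and p53 siRNA libraries, above every tumour, and Apln 66.6 and 82.2 CPM, also above every tumour (1.91 to 45.8 CPM). Ets1 measured 148 and 127 CPM and Eng 56.9 and 53.6 CPM, within the tumour ranges. Fli1, an ETS factor of endothelial and blood cells, measured 13.9 and 14.6 CPM, below every tumour (25.8 to 54.9 CPM). Without these 5 genes, the other 29 summed to 482.5 to 1631 CPM in the tumours and to 21.2 and 23.2 CPM in the line. Set against the R245W tumours, the median over the 34 genes of the log2 ratio of CPM + 1 was -3.45 in the control library.

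With 1 library per treatment there is no replicate check, and the intervals (exact, 95%) cover counting error only. Clec14a had 46 counts in the control and 226 in the p53 siRNA library, a ratio of CPM of 4.29 (3.11 to 6.03). Plvap had 10 and 40 counts, a ratio of 3.49 (1.72 to 7.84), and Flt4 111 and 42 counts, a ratio of 0.33 (0.226 to 0.475). Of the genes above 10 CPM, Apln had a ratio of 1.23 (1.185 to 1.283), Cd34 of 1.09 (1.058 to 1.117) and Ets1 of 0.86 (0.836 to 0.885).

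**Figure D5:**
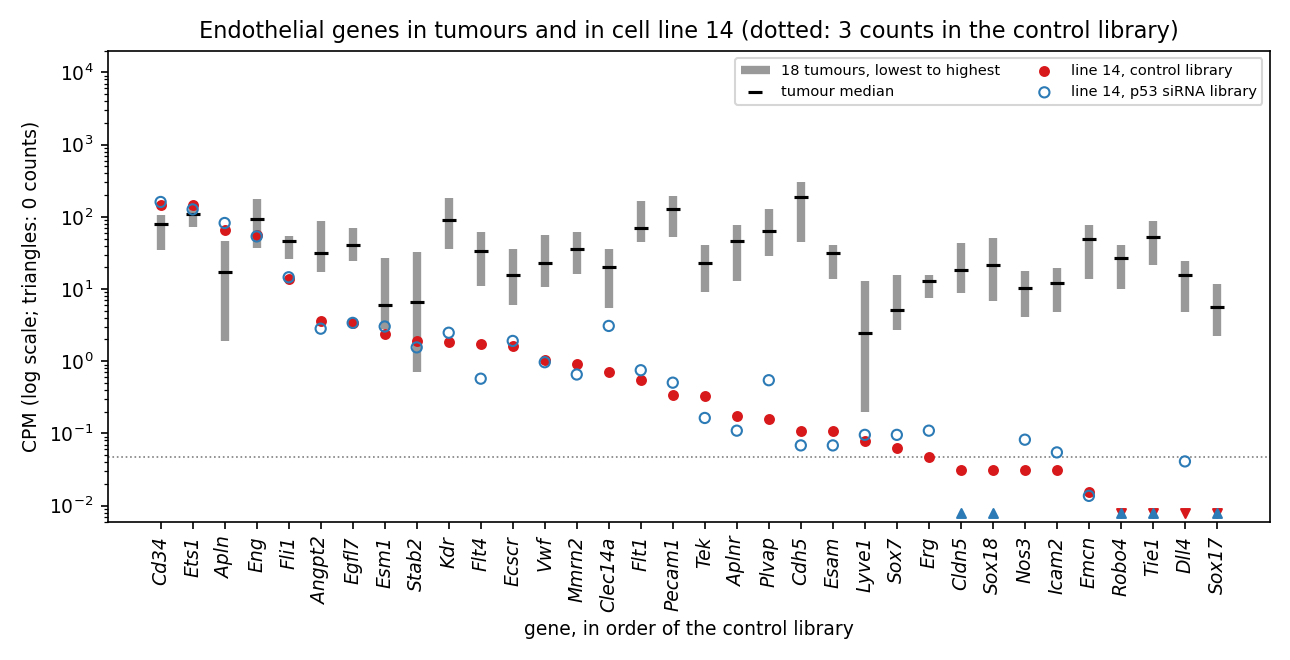
CPM (log axis) of the 34 endothelial genes, ordered by the control library of cell line 14: grey bars span the lowest to the highest of 18 tumours, black marks give their median, filled red and open blue points the 2 libraries of the line, and triangles 0 counts. Cd34 and Apln lie above the tumour range in the line, Ets1 and Eng within it, and the points of most other genes fall far below the bars.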

How the data were processed

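Total RNA of 18 tumours and 2 cell line libraries was sequenced. Per the labels and the submitters' processing notes, the authors aligned reads to GRCm38 with STAR 2.6.0b; the counting program and its annotation are not given in the sources used here. The authors deposited raw counts per gene ID, of which 49326 of 49585 matched a GENCODE M21 symbol.

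CPM is counts per megacount of the library total, without TMM scaling. Separations between groups were read in CPM, and some of them do not hold after TMM scaling. Counts were fitted in edgeR 4.0.16 (R 4.3.3) with filterByExpr (minimum count 10, total 15) and TMM scaling. The fit used a mean per genotype and left 14 residual degrees of freedom. Folds used edgeR's default prior count, and log2 CPM for scores and correlations a prior count of 2. The threshold was an adjusted p of 0.05. DESeq2 1.42.0 and limma 3.58.1 served as alternatives. The edgeR p-values set a genotype difference against the spread between tumours of the same genotype. Permutation p-values of correlations come from shuffling tumours, with genotypes and title kinds mixed over the whole set. In counts simulated for R172H against p53 het (20164 genes), 10.6%, 65.7% and 84.8% of 2-fold, 4-fold and 8-fold changes were recovered, with 4 false of 111 calls.

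Genes given per library were 8 pan-endothelial markers, those that passed, the 2 lowest p per contrast and the highest in the line; Sox17, Eng, Clec14a, Icam2, Apln, Stab2, Lyve1 and, from other lists, Vegfa were added after their values were seen. From each other list those that passed and up to 3 of lowest p were eligible. The members and lists were chosen with earlier results of these data known. A GC correction was added after the data were seen.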

Additional observations from a re-analysis of the deposited data

Results flagged for a closer look

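Within a genotype, 4 of 102 groups of 4 to 6 tumours held 1 tumour far from the rest relative to the group's range, where chance gives about 1 in 20. Flt1 measured 166.8 CPM in R172H 5, against 61.5 to 96.3 CPM in the other R172H tumours. Eng measured 108.2 CPM in R270H 1, against 36.6 to 47.4 CPM in the other R270H tumours. Icam2 measured 16.06 CPM in R172H 3, against 10.6 to 12.5 CPM in the others of its group. Lyve1 measured 7.4 CPM in R270H 3, against 1.25 to 2.76 CPM in the others.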

How the results depend on the processing

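Alternatives were DESeq2, edgeR with DESeq2's size factors or without a filter on low counts, voom with quality weights, fitting the 2 compared groups alone, the second endothelial score or the title kind as a covariate, p53 het of the same title kind only, GC correction and leaving out each tumour. The title kind covariate rests on the 4 p53 het tumours alone, the only genotype with both title kinds. No paired analysis was possible because the replicate numbers were given in order of accession. In R172H, R245W and R270H against p53 het, 0 of the 34 genes passed under every setting run. Sox18 in R270H against R172H kept its call except with the title kind (0 genes passed) and without R270H 3; leaving out each tumour gave 0 to 2 genes, and 0 to 1 for any difference. DESeq2 called 1 gene in R245W against R172H (Vwf), 2 in R270H against R172H (Sox7 and Sox18) and 3 for any difference (Erg, Sox7 and Sox18). Voom called 1 in R245W against R270H (Cd34) and 3 in R270H against R172H (Sox7, Sox18 and Angpt2), and the fit of the 2 groups alone called 3 there (Emcn, Plvap and Sox18). With the endothelial score as a covariate 1 passed for any difference (Sox18), and the median log2 fold was 0.034 in R172H against p53 het and 0.0059 in R245W against R172H. The 34 genes follow that score (median r of 0.64), so the covariate takes up differences they share with it, and these medians are no separate check. With the title kind the median was -0.24 in R245W and 0.54 in R270H against p53 het. It was -0.73 in R245W against R270H and 0.45 in R270H against R172H. Sox18 in R245W against R270H turned to -0.47. With p53 het of the same title kind the median was -0.25 in R245W and 0.53 in R270H against p53 het. Leaving out each tumour gave medians of 0.18 to 0.55 for R172H against p53 het, -0.16 to 0.19 for R245W against p53 het and 0.05 to 0.51 for R270H against p53 het. For correlations by Pearson r, 22 of 34 genes passed with the endothelial score, and fewer by Spearman rho. By r, 5 and 0 passed within title kinds and 2 without the 2 farthest tumours. For pericyte genes it was 4, 0 and 3, and 6 with genotype means removed. For leukocyte genes it was 0 and 0 within title kinds. Fewer libraries enter each of these. The median log2 ratio of the line to R245W was -5.38 with CPM + 0.1 and -1.99 with CPM + 5, which set low genes apart from 0 differently. For the other changes the cause was not tested. A count of 3, or 0.103 to 0.149 CPM, limits what the tumours could show, and the line has 1 library per treatment.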
